A study of Mus musculus with 6 samples.

Results

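The genes encoded by mitochondrial DNA were taken as all gene identifiers of the count table whose GENCODE mouse symbol starts with mt-. They numbered 18 of the 27067 genes in the table, namely 13 mRNA genes, 2 rRNA genes and 3 tRNA genes. The annotation lists 37 such genes on mitochondrial DNA, with the same 13 mRNA and 2 rRNA genes and 22 tRNA genes, and the other tRNA genes were not analysed here. Polyadenylated RNA was measured by sequencing in 6 libraries of B16F10 cells, a pigmented mouse melanoma line. Of these, 3 came from cells that had received an extract of Polianthes tuberosa L. (tuberose) and 3 from control cells, whose columns in the table are named blank. The sources used here give no dose, duration or solvent and do not say whether pigmentation was stimulated. Whether control cells received a solvent is not stated either, so its effect and that of the extract cannot be told apart. As separate cultures are not stated for the replicates, the p-values reflect the spread between libraries, which may be technical.

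Mitochondrial DNA is a small circular genome that encodes core subunits of respiratory complexes I, III and IV and of ATP synthase (complex V), together with the rRNAs and tRNAs needed to translate them inside the organelle. Both strands are transcribed by a nuclear-encoded RNA polymerase into long transcripts, which are cut mainly at the tRNAs that lie between the other genes, so the steady level of each product also depends on its processing and stability. Most of the mRNAs receive a short poly(A) tail, which in several of them completes the stop codon. In human cells the ND6 mRNA is known to lack this tail.

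The ends of the annotated transcripts are shown because a poly(A) tail completes the stop codon where the coding sequence stops with a single T. The annotation ends with the coding sequence, so where the stop codon is complete the tail may lie further on. Of the GENCODE M21 transcripts of the 13 mRNA genes, 10 end with a complete stop codon, and 3 end with a single T. The annotated ends of mt-Atp8 and mt-Nd4l share 43 and 7 bases with the starts of mt-Atp6 and mt-Nd4. These ends therefore need not be the ends of an RNA. In the last 30 bases below, 5′ to 3′, capitals mark the bases of the stop codon.
mt-Co1 end: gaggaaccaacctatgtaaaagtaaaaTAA
mt-Nd5 end: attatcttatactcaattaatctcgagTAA
mt-Cytb end: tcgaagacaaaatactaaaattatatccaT
mt-Nd4 end: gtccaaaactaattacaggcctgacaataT
mt-Co3 end: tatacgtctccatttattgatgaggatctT
Both mRNAs that rose in treated libraries, mt-Co1 and mt-Nd5, end with TAA, but a complete stop codon also ends most of those that fell. Those ending with a single T comprised mt-Cytb and mt-Nd4, which fell, and mt-Co3, which was not called.

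Treated libraries had more counts of mt-Rnr1, the small ribosomal RNA, and at the gene of the proline tRNA mt-Tp. They also had more of the transcript of mt-Co1, the catalytic subunit of complex IV. In the main fit they had less of mt-Cytb, the only complex III subunit made in the organelle, and of most complex I mRNAs. They also had less of mt-Atp6 and mt-Atp8, subunits of the proton channel side of ATP synthase, with overlapping groups for mt-Atp8. How many complex I mRNAs were lower depended on the scaling, as given below. The large ribosomal RNA mt-Rnr2 and the complex IV mRNA mt-Co3 were not called. The filter on low counts left 16 of the 18 genes, of which 4 were higher, 9 were lower and 3 were not called (edgeR quasi-likelihood test, Benjamini-Hochberg adjusted over 15150 tested genes, threshold 0.05). Over all tested genes 53.0% were called, 25.1% higher and 27.9% lower, so that on this scale the share of higher calls among the mitochondrial genes lay at the background and the share of lower calls above it. Under library totals 6 mitochondrial genes were higher and 5 lower, beside 33.4% higher and 20.1% lower over all tested genes. Level-dependent offsets, which let the correction vary with the level of a gene, also gave 6 higher and 5 lower, beside 25.8% and 24.9% over all tested genes. By class, 2 of 13 mRNAs were higher and 9 lower (3 and 5 under library totals, and again under level-dependent offsets), 1 of 2 rRNAs was higher and none lower, and the 1 tested tRNA was higher. The other rRNA, mt-Rnr2, was called higher under library totals and under level-dependent offsets. The median log2 fold change, treated over control, was -0.15 over the 16 genes and 0.0068 over all tested genes. The 3 treated libraries lay all above the 3 controls for 4 genes and all below them for 6, and the groups overlapped for the other 6. Over all tested genes this was so for 28.4% above and 30.3% below, 58.7% in all.

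**Figure D1:**
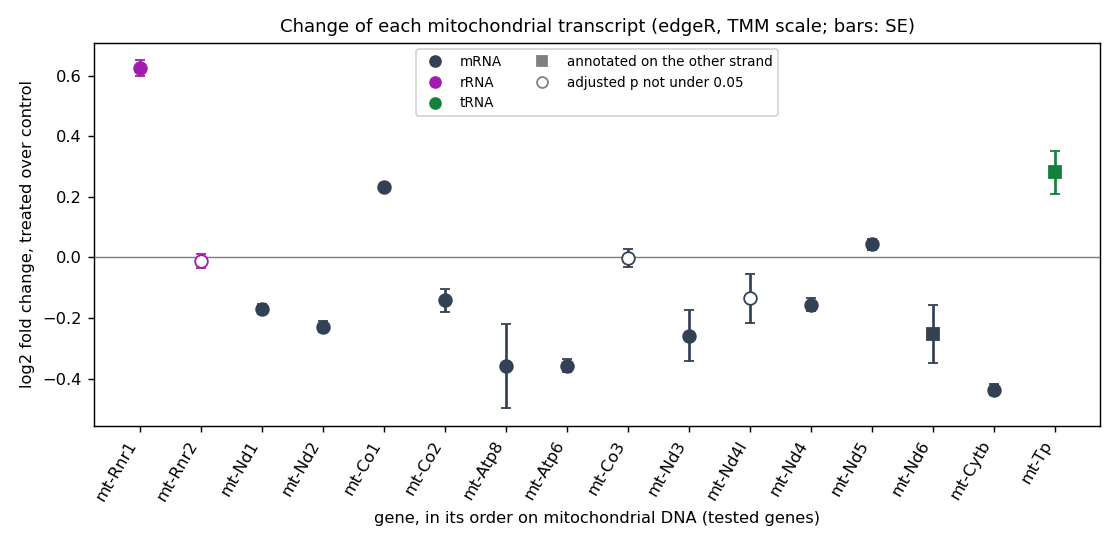
Log2 fold change, treated over control (y axis), of the 16 tested mitochondrial genes in their order on mitochondrial DNA (x axis), with SE bars from edgeR; squares mark genes annotated on the other strand and open symbols genes with an adjusted p not under 0.05. mt-Rnr1 is highest at 0.62 and mt-Cytb lowest at -0.44, and neighbouring genes lie on both sides of 0.

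Depth was between 31183728 and 40129044 counts per library, and levels are given in CPM, with library totals scaled by TMM factors, trimmed means of the log ratios between libraries. No library was a repeat of another, since the lowest chi-square per gene between libraries of 1 group was 3.25. The cells carried pigment cell markers, with all 7 of 7 present and summing to 13888 to 14705 CPM in treated libraries, against 16696 to 17302 CPM in controls. Of these, Tyrp1 was called higher (log2 fold change 0.17) and the other 6 lower, beside 25.1% higher and 27.9% lower over all tested genes. Fibroblast markers, of which 6 of 7 were in the table, summed to 30.3 to 31.2 CPM in treated libraries and 19.9 to 25.2 CPM in controls, nearly all from the receptor gene Pdgfrb and from Col1a1, Col1a2 and Pdgfra. Lum had 0 counts in every library except treated replicate 3, which had 2. Immune markers, 4 of 6 in the table, summed to 7.15 to 7.90 CPM in treated and 3.12 to 3.36 CPM in control libraries, almost wholly from the lysosomal gene Cd68, while Ptprc had at most 2 counts. The 4 endothelial markers stayed under 0.52 CPM in every library and the keratinocyte markers under 0.06 CPM. The part of these differences in the mitochondrial values was not tested.

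The counts of the rRNAs, the scaffold and catalytic core of the mitochondrial ribosome, did not change to the same extent. Polyadenylated RNA was sequenced, so these counts cover only the rRNA that this selection kept. Total rRNA was not measured, and the values and the ratio below hold for these counts alone. mt-Rnr1 (12S, ENSMUSG00000064337) had 460.1, 448 and 453 CPM in treated libraries, against 298, 279 and 305 CPM in controls. All treated libraries were above all controls, by 54.1%, with a log2 fold change of 0.62 (SE 0.027) and an edgeR adjusted p of 8.07e-15. mt-Rnr2 (16S, ENSMUSG00000064339) had 727, 688 and 691 CPM in treated libraries and 695, 721 and 708 CPM in controls. Its groups overlapped and its log2 fold change was -0.012 ± 0.022 (edgeR adjusted p = 0.671). The value turned to 0.066 with library totals in place of TMM and to 0.14 with level-dependent offsets, both called higher. The ratio of mt-Rnr1 to mt-Rnr2, which does not depend on scaling by a library factor, was 0.633, 0.650 and 0.655 in treated libraries and 0.428, 0.388 and 0.431 in controls. All 3 treated ratios were above the controls.

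The tRNA mt-Tp, which carries proline, is read from the strand opposite to most mRNAs. Its transcript in GENCODE M21, shown whole because it is the one tRNA with enough counts to test, is printed 5′ to 3′ in lower case.
mt-Tp: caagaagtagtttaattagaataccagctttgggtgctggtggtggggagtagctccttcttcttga
mt-Tp (ENSMUSG00000064372) had 18.4, 18.4 and 17.6 CPM in treated libraries and 15.6, 14.7 and 14.4 CPM in controls. The groups did not overlap, and its log2 fold change was 0.28 ± 0.071 (SE, edgeR adjusted p = 0.00185). The sources used here give no strand setting, so counts at mt-Tp may also come from precursors or from transcripts of the other strand, which cannot be told apart from the tRNA. The other 2 tRNAs in the table lay near the detection limit. mt-Tc, for cysteine, had 2, 0 and 6 counts in treated libraries and 4, 2 and 8 in controls, and mt-Tl1, one of the leucine tRNAs, had 2, 0 and 0 counts in treated libraries and 0 in each control. Of 9 nuclear genes whose RNAs are known to lack a poly(A) tail 2 were in the table, the Y RNA genes Rny1 and Rny3, with 0 to 2 counts each per library, and the other 7 were not analysed here.

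**Figure D2:**
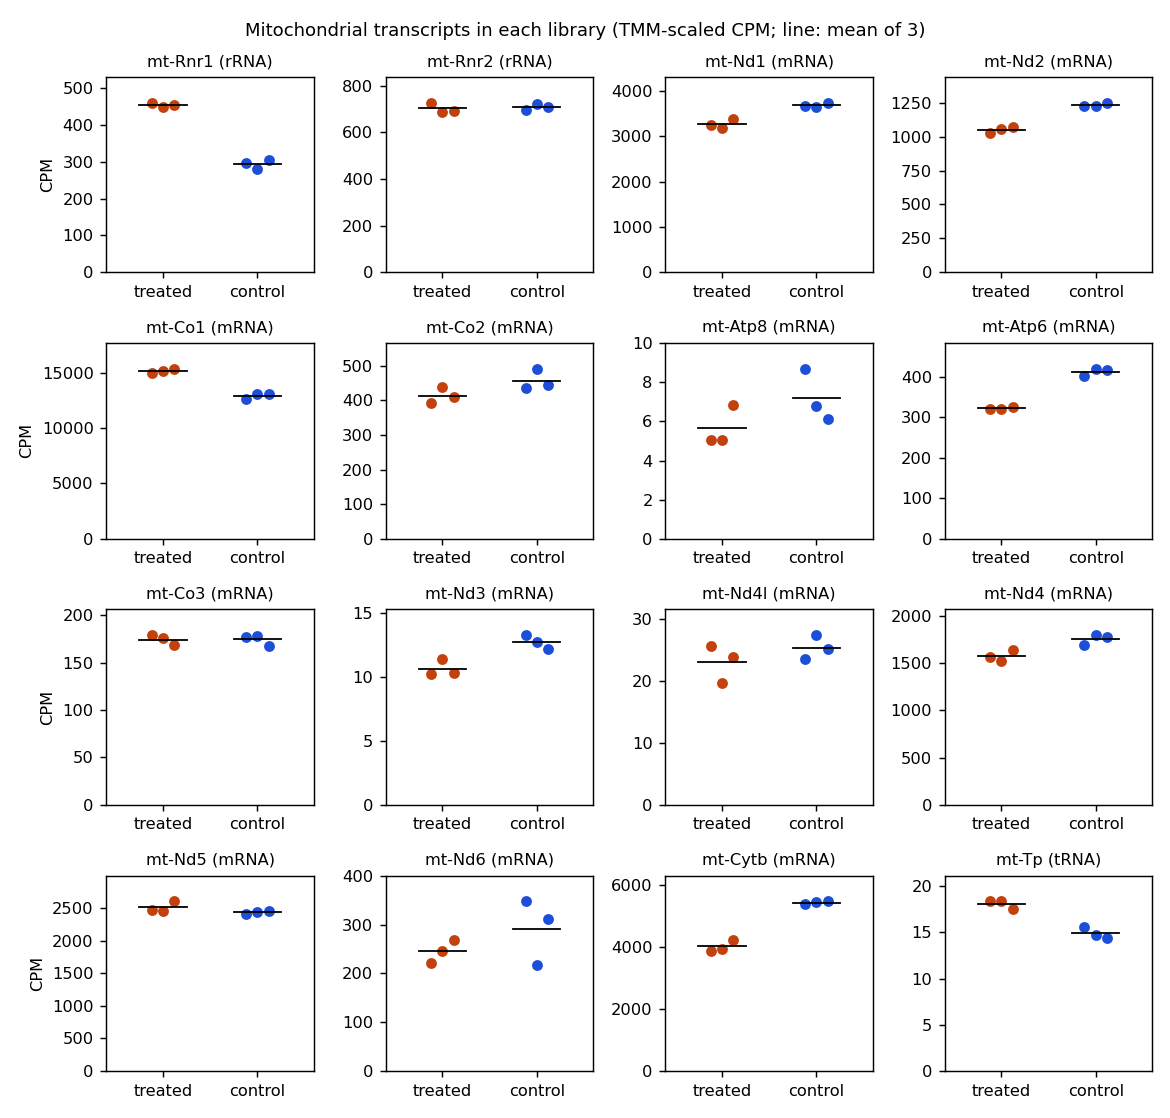
Level in TMM-scaled CPM (y axis, from 0) of each of the 16 tested genes in the 3 treated (left) and 3 control (right) libraries, with a line at the mean. mt-Rnr1, mt-Co1 and mt-Tp are higher and mt-Cytb, mt-Atp6 and mt-Nd2 lower in every treated library than in any control, while the controls of mt-Nd6 spread from 217 to 348 CPM.

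Complex IV, cytochrome c oxidase, transfers electrons to oxygen, and 3 of its subunits are made in the organelle. mt-Co1 (ENSMUSG00000064351), which holds the site of oxygen reduction, had 15013, 15219 and 15398 CPM in treated libraries and 12644, 13114 and 13067 CPM in controls. Every treated library was above every control, a rise of 17.5% (log2 fold change 0.23 ± 0.011, SE, edgeR adjusted p = 4.04e-14). mt-Co2, which receives electrons from cytochrome c, had 393, 440.2 and 409.7 CPM in treated libraries and 435, 492 and 445 CPM in controls. It was called lower (log2 fold change -0.14 ± 0.037, edgeR adjusted p = 0.00248) although the highest treated library was above the lowest control. The call was lost with library totals (-0.065), level-dependent offsets (-0.00089) and DESeq2 (-0.14). mt-Co3, a structural core subunit, had 179, 176 and 168 CPM in treated libraries and 178, 178 and 168 CPM in controls. The groups overlapped, and the log2 fold change was -0.00069 ± 0.030 (edgeR adjusted p = 0.987), turning to 0.077 under library totals and 0.11 under level-dependent offsets, both called. Of the 3 complex IV mRNAs, 1 was thus called higher, 1 lower and 1 neither.

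mt-Cytb (ENSMUSG00000064370) encodes cytochrome b, the core of complex III, which passes electrons from ubiquinol to cytochrome c. It had 3873, 3940.5 and 4213 CPM in treated libraries and 5368, 5435 and 5469 CPM in controls. Every treated library was below every control, and the level fell by 26.1% (log2 fold change -0.44 ± 0.019, SE, edgeR adjusted p = 1.11e-14). The ratio of mt-Co1 to mt-Cytb was 3.88, 3.86 and 3.65 in treated libraries and 2.36, 2.41 and 2.39 in controls. The spread within a group was small beside the distance between the groups.

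ATP synthase uses the proton gradient to make ATP, and mt-Atp6 forms the proton path against the rotor. mt-Atp6 (ENSMUSG00000064357) had 321, 321 and 324 CPM in treated libraries and 403, 419 and 415 CPM in controls. It fell by 21.9%, with no overlap of the groups (log2 fold change -0.36 ± 0.023, SE, edgeR adjusted p = 7.45e-12). mt-Atp8, a small peripheral subunit, had 5.04, 5.08 and 6.83 CPM in treated libraries and 8.70, 6.79 and 6.12 CPM in controls. These rest on 171 to 340 counts per library, and the groups overlapped. mt-Atp8 was called lower, at -0.36 ± 0.14 (SE, edgeR adjusted p = 0.0332). That call was lost without treated replicate 1 (-0.29), treated replicate 2 (-0.29) or control replicate 1 (-0.19), with library totals (-0.28) and with DESeq2 (-0.35). The end of mt-Atp8 and the start of mt-Atp6 share the 43 bases below, shown because a read that covers them belongs to both genes.
mt-Atp8 and mt-Atp6 overlap: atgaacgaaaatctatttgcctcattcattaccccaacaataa
The sources used here do not say how such reads were assigned, and the counts of both genes are uncertain to that extent.

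Complex I, which takes electrons from NADH, has 7 subunits made in the organelle, all in its membrane arm, and 5 of their mRNAs fell, 1 rose and 1 was not called, whereas 3 were lower under library totals and 2 under level-dependent offsets, with 1 higher in both. mt-Nd1, at the end of the arm where ubiquinone binds, had 3249.6, 3186 and 3385 CPM in treated libraries and 3658, 3648 and 3741 CPM in controls. mt-Nd2, a proton-pumping subunit, had 1030.1, 1053 and 1072 CPM in treated libraries, against 1225, 1222 and 1250.3 CPM in controls. mt-Nd4, another pumping subunit, had 1566, 1522 and 1639.7 CPM in treated libraries and 1695, 1799 and 1775 CPM in controls. For all 3 genes each treated library was below each control. The log2 fold changes were -0.17 ± 0.016 for mt-Nd1, -0.23 ± 0.018 for mt-Nd2 and -0.16 ± 0.022 for mt-Nd4 (SE, edgeR adjusted p = 8.27e-09, 2.23e-10 and 3.01e-06). With level-dependent offsets mt-Nd1 and mt-Nd4 turned to 0.030 and 0.024 and were no longer called.

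mt-Nd5, a proton-pumping subunit like mt-Nd2 and mt-Nd4, had 2467, 2458 and 2607 CPM in treated libraries and 2417, 2439 and 2456 CPM in controls. The groups did not overlap but nearly touched, and the log2 fold change was 0.043 ± 0.017 (SE, edgeR adjusted p = 0.0431). The call was lost without treated replicate 3 (0.011), control replicate 1 (0.040) or control replicate 2 (0.042) and with no filter (0.031). mt-Nd3, a small membrane subunit, had 10.2, 11.4 and 10.3 CPM in treated libraries and 13.3, 12.7 and 12.2 CPM in controls, with no overlap (log2 fold change -0.26 ± 0.084, edgeR adjusted p = 0.0120). It was no longer called without control replicate 1 (-0.22) and with library totals (-0.18). mt-Nd4l, another small membrane subunit, had 25.6, 19.8 and 24.0 CPM in treated libraries, against 23.5, 27.5 and 25.2 CPM in controls, and the groups overlapped (log2 fold change -0.14 ± 0.080, edgeR adjusted p = 0.162). Without treated replicate 1 it was called lower (-0.22).

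mt-Nd6, a core membrane subunit, is the one mRNA read from the strand opposite to the others. It had 222, 246 and 268 CPM in treated libraries and 348, 217 and 311 CPM in controls. Control replicate 2 was the lowest of all 6 libraries, and the SD was 9.36% of the mean in treated libraries and 23.3% in controls. mt-Nd6 was called lower (log2 fold change -0.25 ± 0.095, SE, edgeR adjusted p = 0.0286) under 9 of 15 alternatives as well. The call was lost with library totals (-0.18), level-dependent offsets (-0.13) and DESeq2 (-0.25), and without treated replicate 1 (-0.19), control replicate 1 (-0.10) or control replicate 3 (-0.21), and without control replicate 2 the value was -0.43. The ratio of mt-Nd6 to mt-Nd5, whose genes overlap by 14 bases on opposite strands, was 0.0900, 0.1001 and 0.103 in treated libraries and 0.144, 0.0888 and 0.127 in controls, with overlap. The sources used here give no strand setting for the counting, so reads of mt-Nd6 and of transcripts from the other strand cannot be told apart.

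Mitochondrial genes together held 3.04, 3.06 and 3.14% of all counts in treated libraries and 2.87, 2.92 and 2.93% in controls, with means of 3.08 ± 0.0533% and 2.91 ± 0.0360% (SD, n = 3 each). The groups did not overlap. mt-Co1 alone was 50.8, 51.2 and 50.2% of the mitochondrial counts in treated libraries, against 43.0, 43.7 and 43.3% in controls, and over the other mitochondrial genes the share turned round, at 1.496, 1.495 and 1.564% in treated libraries and 1.63, 1.64 and 1.66% in controls. The difference in the joint share also depends on the scale. Summed on the TMM scale, mitochondrial transcripts came to 29999.9 ± 604 CPM in treated libraries and 29873 ± 394 CPM in controls (SD, n = 3 each), a log2 ratio of 0.0061 with overlapping groups. DNA was not measured, so the number of genome copies and transcripts per copy cannot be told apart, nor in these bulk samples can the number of cells of a kind and RNA per cell.

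**Figure D3:**
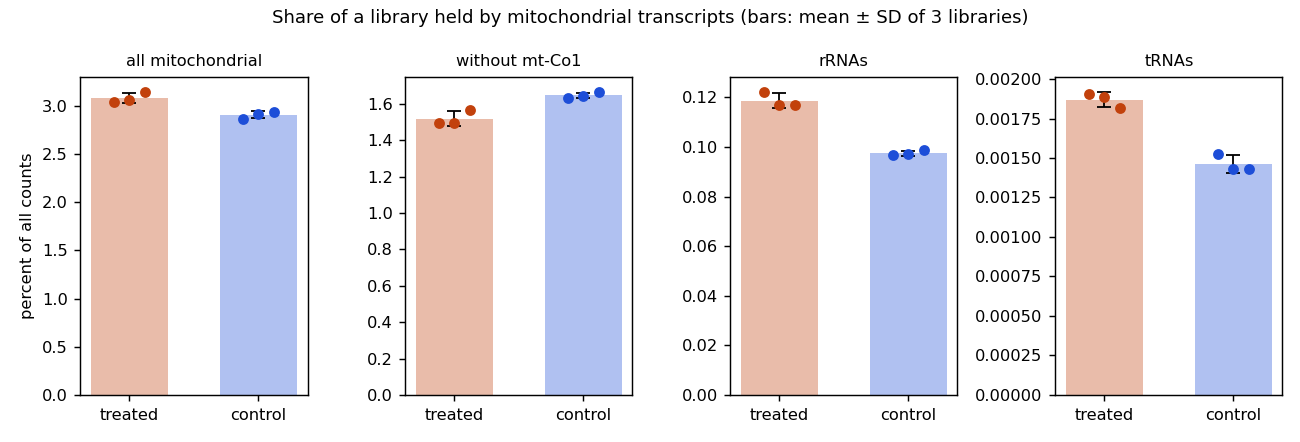
Percent of all counts in a library (y axis, from 0, its own scale in each panel) held by all mitochondrial genes, by those other than mt-Co1, by the rRNAs and by the tRNAs, in treated (left) and control (right) libraries; bars are means with SD of 3 libraries and points are libraries. The joint share is 3.08% in treated and 2.91% in control libraries, and without mt-Co1 it is 1.52% in treated and 1.65% in control libraries.

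Within the mitochondrial counts the balance between complexes differed. Complex IV mRNAs were 52.7 ± 0.583% of them in treated and 45.4 ± 0.434% in control libraries. Complex I mRNAs were 29.0 ± 0.396% in treated and 31.6 ± 0.362% in control libraries, and the complex III mRNA was 13.4 ± 0.329% in treated and 18.2 ± 0.0749% in control libraries. Complex V mRNAs were 1.09 ± 0.0117% in treated and 1.40 ± 0.0129% in control libraries, and rRNAs 3.85 ± 0.148% in treated and 3.36 ± 0.0214% in control libraries (SD, n = 3 each). For each of these shares the groups did not overlap, and a larger share for mt-Co1 lowers the shares of all others by construction.

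Fitted with the summed mitochondrial counts as library size, 3 of the 16 genes were higher and 9 lower (edgeR, adjusted over all tested genes). In that fit 51.2% of all tested genes were called, 23.7% higher and 27.5% lower. mt-Nd5 was the call that differed from the first fit (0.036, edgeR adjusted p = 0.118). With mt-Co1 left out of that total, an alternative chosen after seeing the data, 6 genes were higher and 2 lower. Taking a rising gene out of the total raises the values by construction. The share called over all tested genes was not counted for that fit. mt-Rnr1, mt-Co1 and mt-Tp were called higher, and mt-Cytb, mt-Atp6 and mt-Nd2 lower, under every one of the 15 alternative fits on the whole table, and the other 7 called genes lost the call, or changed sign, in at least 1.

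**Figure D4:**
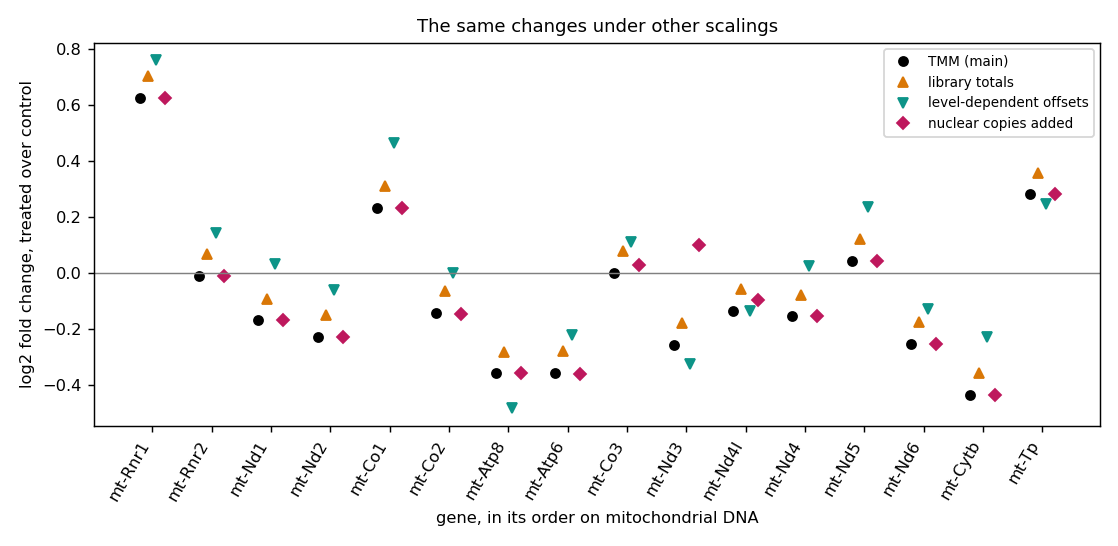
Log2 fold change, treated over control (y axis), of the 16 tested genes in their order on mitochondrial DNA (x axis) with TMM factors, library totals, level-dependent offsets and the counts of nuclear copies added. mt-Rnr1 stays at 0.62 or above and mt-Cytb at -0.23 or below in all 4, whereas mt-Nd1 and mt-Nd4 cross 0 with level-dependent offsets and mt-Nd3 with copies added.

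Stretches of mitochondrial DNA also lie in nuclear chromosomes, where they can carry the same bases as the mitochondrial gene. In GENCODE M21 11 nuclear genes aligned to an mRNA of mitochondrial DNA over at least 100 bases at 95% identity or more. On chromosome 1, 7 of them formed an uninterrupted block in mitochondrial gene order, namely copies of mt-Co2, mt-Atp6, mt-Co3, mt-Nd3 and mt-Nd4l over nearly their whole length and parts of mt-Co1 and mt-Nd4. A window from base 1 to base 60 of mt-Co2 is shown because a read from it cannot be placed between mt-Co2 and Gm28661 on chromosome 1, while Gm13341 on chromosome 2 differs at 2 bases, in capitals.
mt-Co2 window: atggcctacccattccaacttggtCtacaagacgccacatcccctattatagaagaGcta
Gm28661 window: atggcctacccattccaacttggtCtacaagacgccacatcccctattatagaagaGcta
Gm13341 window: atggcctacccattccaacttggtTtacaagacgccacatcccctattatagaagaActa
Over the aligned part mt-Co1 differed from its chromosome 1 copy Gm29216 at 1 base, A1066T, counted from base 1 of mt-Co1 with the mitochondrial base first.

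The chromosome 1 copies carried many counts, identical or with 1 differing base. Gm28661 had 113, 111 and 115 CPM in treated libraries and 117, 140.4 and 125 CPM in controls. Its counts, summed over the libraries of a group, were 21.4% of those of mt-Co2 and this copy together in treated and 21.7% in control libraries. Gm13341, the copy with differing bases, stayed under 0.75 CPM in every library. Gm10925, the copy of mt-Atp6, had 156, 158 and 170.2 CPM in treated libraries and 200.1, 223 and 204 CPM in controls, a log2 fold change of -0.37 beside -0.36 for mt-Atp6 itself. Gm28438, the copy of mt-Nd3, exceeded its mitochondrial gene, with 25.3, 29.0 and 15.04 CPM in treated libraries and 15.6, 17.5 and 23.6 CPM in controls. With the counts of copies added to their genes, an alternative chosen after seeing the data, mt-Nd3 turned to 0.099 (edgeR adjusted p = 0.448). The counts of mt-Co2, mt-Atp6, mt-Co3, mt-Nd3 and mt-Nd4l are therefore uncertain, since the sources used here give no setting for reads that align to several places.

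Levels per length, in CPM per 1000 bases over all 6 libraries, placed mt-Co1 first at 9110.5, followed by mt-Cytb at 4123 and mt-Nd1 at 3634. The 5 mRNAs with a chromosome 1 copy over nearly their whole length lay between 33.6 and 637, with a median of 223. This group leaves out mt-Co1, whose chromosome 1 copy covers only a part. On chromosome 2, Gm13340 aligned to mt-Co1 over its whole length at 97.6% identity, with 37 mismatches. It held 0.040% of the counts of mt-Co1 and this copy together in treated libraries and 0.046% in controls. Whether copies lower the counts of their genes was not tested. The 6 mRNAs to which no chromosome 1 copy aligned over at least 100 bases lay between 31.5 and 4123, with a median of 1228. The lowest of them is mt-Atp8, whose last bases also lie in the copied start of mt-Atp6. These are levels, not differences between groups, and they are a description of genes that share libraries.

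Nuclear genes supply all proteins of mitochondrial transcription and RNA processing. Of 10 tested transcription genes none was higher and 2 were lower, beside 25.1% higher and 27.9% lower over all tested genes, with a median log2 fold change of -0.064, which was 0.013 with library totals. Polrmt, the mitochondrial RNA polymerase, fell to 34.5 ± 0.198 CPM in treated libraries, against 51.1 ± 2.16 CPM in controls (SD, n = 3 each, log2 fold change -0.57, edgeR adjusted p = 2.08e-10). Mterf3, a repressor of mitochondrial transcription in mice, fell as well (-0.24, edgeR adjusted p = 0.00248). Tfam, which packages the genome and starts transcription, had 82.5 CPM in treated and 85.7 CPM in control libraries (-0.055, edgeR adjusted p = 0.183).

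Genes of mitochondrial RNA processing and stability were mostly lower, with 21 of 34 tested members lower, 1 higher and 12 not called. Over all tested genes 27.9% were lower and 25.1% higher. The median log2 fold change was -0.21, which was -0.13 with library totals (15 lower, 4 higher, beside the 20.1% and 33.4% of that setting). With level-dependent offsets it was -0.18 (20 lower, 1 higher, beside 24.9% and 25.8%). Rexo2, which degrades very short RNAs, fell most (-0.52), followed by Elac2 (-0.51), which cuts the 3′ end of tRNAs, Tbrg4 (-0.50), which affects the stability of mitochondrial mRNAs, and Rpusd4 (-0.46), which modifies the large rRNA. Lrpprc, which protects mitochondrial mRNAs and promotes their polyadenylation, fell to 149.5 CPM in treated libraries, against 197 CPM in controls (log2 fold change -0.39, edgeR adjusted p = 1.09e-11). Its partner gene Slirp had mean levels of 0.0711 CPM in treated and 0.0490 CPM in control libraries and was not tested.

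The balances of the nuclear subunit genes of the same complexes are to be read beside those over all tested genes. On the TMM scale 25.1% of all tested genes were higher and 27.9% lower, and with library totals 33.4% and 20.1%. In complex I 19 of 36 tested nuclear subunits were lower and 5 higher, with a median log2 fold change of -0.12, which was -0.043 with library totals (15 lower, 9 higher). With level-dependent offsets the median was -0.063 (16 lower, 8 higher). The iron-sulphur subunit gene Ndufs8 (-0.50) and Ndufa9 (-0.27) fell, while Ndufv3 (0.37) and Ndufa1 (0.32) rose. In complex III 5 of 9 were lower and 2 higher, with a median of -0.11, which was -0.029 with library totals (4 lower, 3 higher). With level-dependent offsets it was -0.014 (4 lower, 3 higher). The core protein genes Uqcrc1 (-0.42) and Uqcrc2 (-0.28) and the cytochrome c1 gene Cyc1 (-0.38) fell, and Uqcrq (0.25) rose.

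In complex IV 6 of 11 tested nuclear subunits were higher and 2 lower, beside 25.1% and 27.9% over all tested genes. The median was 0.092, which was 0.17 with library totals (8 higher, 0 lower, beside 33.4% and 20.1%) and 0.20 with level-dependent offsets. Cox7c (0.21), Cox6c (0.18), Cox8a (0.13) and Cox7b (0.13), small subunits around the mitochondrial core, rose, and Cox5a (-0.15) fell. In complex V 9 of 15 were lower and none was higher, with a median of -0.083, which was -0.0050 with library totals (7 lower, 3 higher). Under level-dependent offsets the median was 0.014 (6 lower, 2 higher, beside 24.9% and 25.8% over all tested genes). Atp5g1 (-0.51) and Atp5g3 (-0.28), which encode the rotor ring protein, and the catalytic part genes Atp5a1 (-0.34) and Atp5b (-0.19) fell, as did Atp5f1 (-0.28), part of the stalk.

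**Figure D5:**
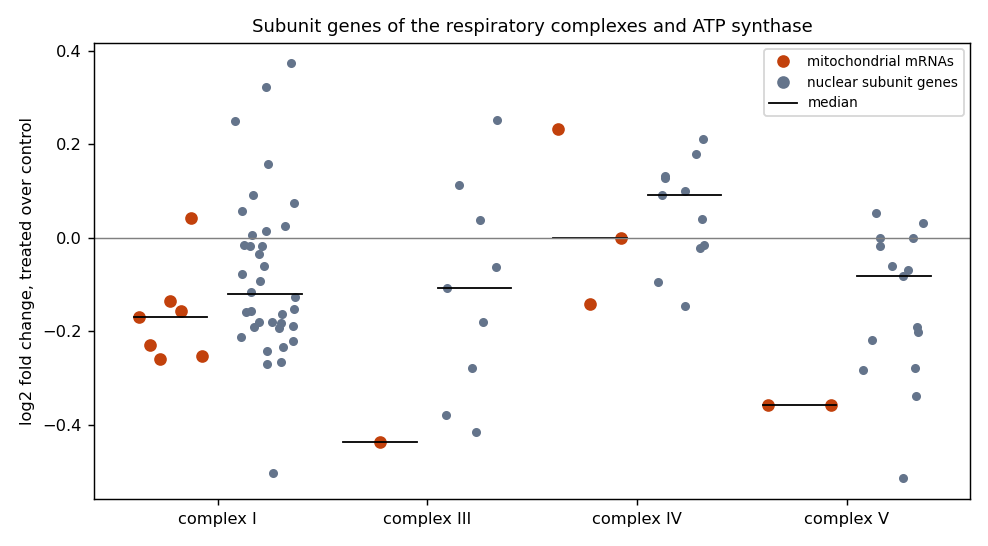
Log2 fold change, treated over control (y axis), of mitochondrial mRNAs and of tested nuclear subunit genes in complexes I, III, IV and V (x axis), with lines at the medians. On the TMM scale the median of nuclear subunits is 0.092 in complex IV and between -0.12 and -0.083 in the others. mt-Cytb, the 1 mitochondrial mRNA of complex III, is at -0.44.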

How the data were processed

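The authors deposited unnormalised read counts per gene, with 1 column per library. Per the submitters' processing notes, fastp 0.22.0, HISAT2 2.2.0 and featureCounts 2.0.6 were used, and the builds hg38 and mm39 are listed with no role. The annotation release, the strand setting and the treatment of reads with several alignments remain not given in the sources used here. Symbols, strands and transcript sequences came from GENCODE M21 (GRCm38), matched by gene identifier. That assembly differs from mm39, and coordinates are left out for this reason. Nuclear copies were found with blastn 2.17.0.

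The filterByExpr defaults (a count of 10 in enough libraries and 15 in total) set which genes were tested, and TMM set the scale. Treated and control libraries were compared with the two-sided quasi-likelihood F test of edgeR 4.0.16 in R 4.3.3, with the group as term and Benjamini-Hochberg adjustment over 15150 genes. The standard error is the size of the log2 fold change over the square root of F. The biological coefficient of variation was 3.70%. A second fit used the summed mitochondrial counts as library size. Shares and ratios were not tested. The first fit was tested on simulated data, and the second fit and the alternatives were not.

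All mitochondrial genes that passed the filter are described. From each nuclear list the named genes are called members, at most 4 by smallest p and at most 4 by largest change, plus Tfam, Polrmt, Lrpprc and Slirp whatever their result. Not every gene that this rule takes is reported here. Nuclear copies and other cell type markers named in the text were picked as examples after their values were seen. The genes and lists were chosen with earlier results of these data known. The alternatives were other size factors (median of ratios, library totals, nuclear genes alone), level-dependent offsets from cyclic loess (limma 3.58.1), no filter on low counts, a minimum of 1 CPM in 3 libraries, the replicate number as a block, DESeq2 1.42.0 and leaving out each library in turn. Those without mt-Co1 or mt-Nd6 and with nuclear copies added were chosen after seeing the data.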

Additional observations from a re-analysis of the deposited data

How the results depend on the processing

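The 4 higher calls among mitochondrial genes became 3 to 4, and the 9 lower calls 6 to 9, when 1 library was left out, with 6 lower calls without control replicate 1. There were 6 higher and 5 lower calls under library totals, and likewise 6 and 5 under level-dependent offsets. Library totals moved the median log2 fold change of all genes to 0.084. Against the summed mitochondrial counts, the 3 higher calls stayed at 3 in number and the 9 lower ones became 6 to 9 without 1 library. With mt-Co1 left out of that total they were 6 and 2, and mt-Rnr2 (0.18), mt-Nd1 (0.025), mt-Co2 (0.054), mt-Co3 (0.20), mt-Nd4l (0.060) and mt-Nd4 (0.039) turned to higher values, as taking a rising gene out of the total does by construction. Among 62 tested nuclear genes of mitochondrial DNA expression, 7 higher calls became 12 with library totals and 5 to 7 without 1 library. Their 28 lower calls became 22 with library totals and 26 to 29 without 1 library. Over all tested genes, the share of higher calls moved from 25.1% to 33.4% with library totals. That of lower calls moved from 27.9% to 20.1%. The joint share differed by 0.143 to 0.194 percentage points without 1 library (mRNAs 0.121 to 0.174, rRNAs 0.0194 to 0.0221, tRNAs 0.000389 to 0.000440), and by -0.129 (all) and -0.150 (mRNAs) over genes other than mt-Co1.

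Besides these, mt-Rnr2 turned to 0.066 with library totals, 0.14 with level-dependent offsets and 0.0048 with a filter at 1 CPM. Without 1 library it ran from -0.041 to 0.00094, and relative to the mitochondrial total from -0.055 to 0.0097. mt-Nd1 (0.030) and mt-Nd4 (0.024) turned with level-dependent offsets, and mt-Nd3 (0.099) with copies added. mt-Co3 turned to 0.0046 with median-of-ratios factors and with DESeq2, 0.077 with library totals, 0.0014 with factors from nuclear genes, 0.11 with level-dependent offsets, 0.016 with a filter at 1 CPM and 0.028 with copies added. Without 1 library it ran from -0.026 to 0.020, and relative to the mitochondrial total from -0.041 to 0.034. The cause was not tested.

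Replicate numbers were shared between groups, but over all tested genes the deviations of same-numbered libraries correlated at -0.014, -0.028 and 0.024. That shows no pairing over the genes as a whole, and it cannot show whether single genes follow the number. With the replicate block 4 mitochondrial genes were higher and 9 lower, and relative to the mitochondrial total 4 and 9. Depth limits mt-Tc and mt-Tl1, with at most 8 counts per library.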

Other observations

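Genes that copy and maintain mitochondrial DNA moved both ways, with 6 of 18 tested members higher, 5 lower and 7 not called, and a median log2 fold change of -0.0073, which was 0.070 with library totals and 0.025 under level-dependent offsets. The shares of higher and lower calls are close to the 25.1% and 27.9% found over all tested genes. Primpol, a primase that restarts stalled replication, had 15.7 CPM in treated and 10.3 CPM in control libraries (log2 fold change 0.61 ± 0.082, SE, edgeR adjusted p = 1.25e-06). The nuclease and helicase gene Dna2 had 25.8 CPM in treated and 38.8 CPM in control libraries (-0.59 ± 0.054, edgeR adjusted p = 2.90e-09). Top1mt, the mitochondrial topoisomerase (-0.45), Lig3, the DNA ligase used in mitochondria (-0.43), and Atad3a, an inner membrane protein tied to the nucleoid (-0.29), also fell. The polymerase gene Polg had 82.8 CPM in treated and 87.3 CPM in control libraries and was not called (edgeR adjusted p = 0.104).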
